A study of Mus musculus with 15 samples.

Results

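Chromatin marks were examined at 9 genes that carry glucose into the metabolism of the β-cell, couple metabolism to membrane voltage and calcium entry, or load zinc into insulin granules: Slc2a2, Pcx, G6pc2, Kcnj11, Abcc8, Trpm5, Cacna1c, Cacna1d and Slc30a8. They were chosen by their function, with earlier results of these data known, as 9 of the 22028 protein-coding genes of GENCODE release M21 on the GRCm38 genome. For each gene the called peaks within 1000 bp of its 5′ end, and those within its body and 20 kb on either side, were taken from 6 peak lists, 1 for each of 2 histone marks in each of 3 diets.

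The samples were pancreatic islets of CBA mice, an inbred strain. The mice were kept on regular diet (RD), on high-fat diet (HFD), or on a high-fat diet formulated with O304 (HFD-O304), O304 being an activator of the energy sensor AMPK. Acetylation of lysine 27 of histone H3 (H3K27Ac), found at active promoters and enhancers, and trimethylation of the same residue (H3K27Me3), deposited by the Polycomb machinery at repressed genes, were measured by chromatin immunoprecipitation and sequencing. Each mark and diet had 2 replicates of pooled islets, which the authors merged before calling peaks, so that there was 1 list per mark and diet, no error between replicates and no test between diets. Islets hold several cell types besides β-cells, and a weaker mark in every cell cannot be told apart from a mark carried by fewer cells.

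A β-cell takes up glucose through a facilitative transporter, phosphorylates it and burns it, and the ATP that results closes a potassium channel built from a pore subunit and a sulphonylurea receptor. The membrane then depolarises, with a contribution from cation channels of the TRPM family, and voltage-gated L-type calcium channels open. Calcium entry drives the fusion of granules in which insulin is crystallised with zinc.

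The H3K27Ac lists rested on 83773042 fragments under RD, 95218072 under HFD and 84694188 under HFD-O304, after removal of duplicates, and held 16314, 21674 and 20305 peaks. Peak strength is given as the pileup, the mean number of fragments over a base of the peak, divided by the pileup that the same fragments would give if spread evenly over the effective genome. The lowest ratio among the called peaks was 2.40 under RD, 2.26 under HFD and 2.37 under HFD-O304, and these values are the limits below which no H3K27Ac peak was listed. In H3K27Me3 the kept fragments numbered 54166902 to 74870300 and the lowest ratios ran from 2.74 to 3.10. As a check on the tissue, 7, 8 and 7 of 10 β-cell marker genes carried H3K27Ac at the promoter under RD, HFD and HFD-O304, among them Pdx1, Nkx6-1, Mafa and Ucn3, and 0 of 8 macrophage and endothelial markers did in any diet. The defining β-cell genes Ins2 and Iapp had no H3K27Ac peak within 1000 bp of the 5′ end in any list, and Ins1 had none under HFD-O304.

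H3K27Ac was found at the 5′ end of 3 of the 9 genes under RD, 4 under HFD and 5 under HFD-O304. Over all protein-coding genes the share was 43.9% under RD, 49.7% under HFD and 49.2% under HFD-O304. With only 9 genes, these counts do not set them apart from all genes in any diet. At coding starts of complete transcripts the counts were 5, 6 and 7, against 46.8%, 52.7% and 52.1% of all genes. Pcx, Kcnj11 and Abcc8 carried the mark in all 3 diets, as did 42.4% of all genes. Slc2a2 carried it under HFD and HFD-O304 but not under RD, a pattern shared by 4.49% of genes, and Slc30a8 under HFD-O304 alone, shared by 1.84%. G6pc2, Trpm5, Cacna1c and Cacna1d had no peak at the 5′ end in any diet, like 47.6% of genes. H3K27Me3 was found at the 5′ end of 0 of the 9 genes in every diet, against 6.62%, 8.45% and 8.88% of all genes under RD, HFD and HFD-O304.

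**Figure D1:**
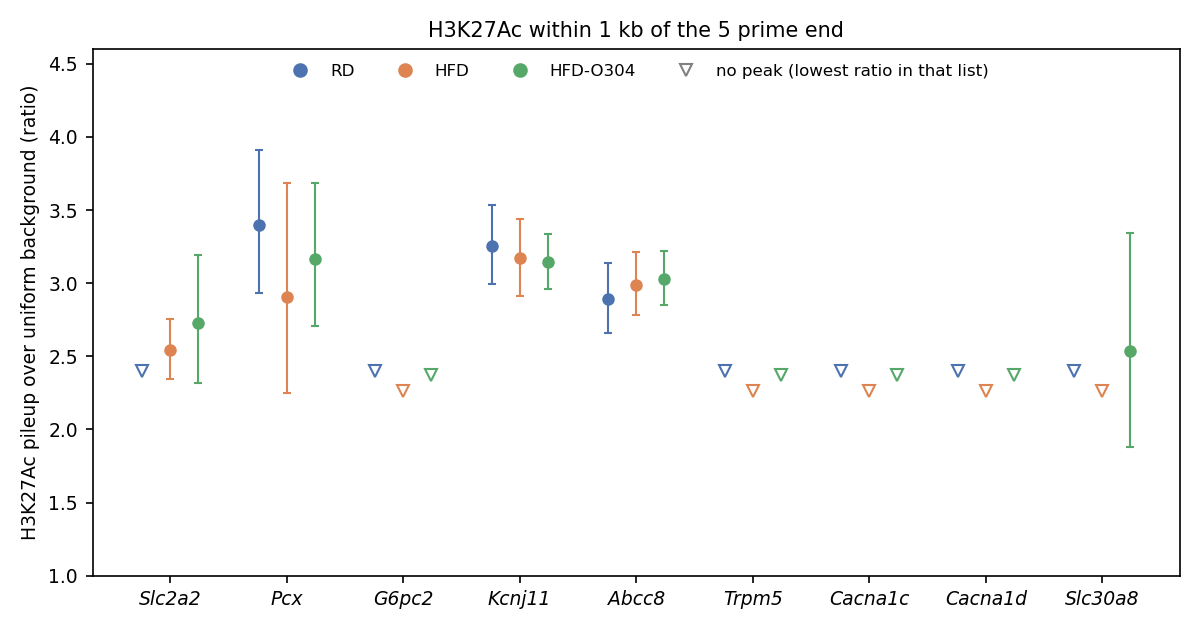
H3K27Ac pileup over the uniform background (vertical axis, a ratio starting at 1) for the strongest peak within 1 kb of the 5′ end of each gene (horizontal axis) under RD, HFD and HFD-O304. Filled points are called peaks with 95% Poisson intervals, which cover counting error only, and open triangles mark the lowest ratio in a list where no peak was called. Pcx, Kcnj11 and Abcc8 have points in all 3 diets, between 2.89 and 3.40, with overlapping intervals, and G6pc2, Trpm5, Cacna1c and Cacna1d have triangles only.

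Sequences upstream of the starts were read from RefSeq promoter windows on GRCm38.p6, which hold 11 starts of 6 of the 9 genes. The 250 bases before 7 of those starts are shown 5′ to 3′ on the strand of the gene, with every CpG dinucleotide in capitals, to set the number of CpG at each start beside its H3K27Ac.
Slc2a2 chr3:28697653-28697902 (plus strand): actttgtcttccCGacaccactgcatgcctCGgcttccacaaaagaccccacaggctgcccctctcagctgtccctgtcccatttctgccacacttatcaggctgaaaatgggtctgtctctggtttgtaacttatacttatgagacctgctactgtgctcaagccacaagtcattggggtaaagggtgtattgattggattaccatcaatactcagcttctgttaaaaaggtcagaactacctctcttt
Pcx, 5′ end chr19:4510222-4510471 (plus strand): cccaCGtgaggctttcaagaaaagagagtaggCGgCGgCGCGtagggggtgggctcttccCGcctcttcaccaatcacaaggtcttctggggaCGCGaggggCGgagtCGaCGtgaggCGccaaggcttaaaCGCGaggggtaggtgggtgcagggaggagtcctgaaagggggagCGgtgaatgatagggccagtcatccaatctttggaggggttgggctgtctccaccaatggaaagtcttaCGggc
Trpm5 chr7:143094643-143094892 (minus strand): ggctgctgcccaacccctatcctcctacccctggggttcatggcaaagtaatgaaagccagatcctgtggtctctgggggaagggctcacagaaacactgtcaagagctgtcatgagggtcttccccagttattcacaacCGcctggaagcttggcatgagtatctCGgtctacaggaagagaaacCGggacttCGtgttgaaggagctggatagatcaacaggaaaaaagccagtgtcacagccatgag
Cacna1c, 5′ end chr6:119196410-119196659 (minus strand): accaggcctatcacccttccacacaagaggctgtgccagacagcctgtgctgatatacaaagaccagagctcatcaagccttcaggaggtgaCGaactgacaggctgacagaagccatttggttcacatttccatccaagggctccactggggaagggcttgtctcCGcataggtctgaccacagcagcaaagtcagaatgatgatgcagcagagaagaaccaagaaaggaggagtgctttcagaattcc
Cacna1c, downstream start chr6:119108496-119108745 (minus strand): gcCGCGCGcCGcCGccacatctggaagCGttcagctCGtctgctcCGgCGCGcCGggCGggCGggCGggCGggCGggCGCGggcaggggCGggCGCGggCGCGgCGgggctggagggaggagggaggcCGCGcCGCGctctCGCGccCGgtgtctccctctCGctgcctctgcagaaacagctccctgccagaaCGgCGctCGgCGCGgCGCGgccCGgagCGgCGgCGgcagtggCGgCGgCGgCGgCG
Cacna1d, 5′ end chr14:30491157-30491406 (minus strand): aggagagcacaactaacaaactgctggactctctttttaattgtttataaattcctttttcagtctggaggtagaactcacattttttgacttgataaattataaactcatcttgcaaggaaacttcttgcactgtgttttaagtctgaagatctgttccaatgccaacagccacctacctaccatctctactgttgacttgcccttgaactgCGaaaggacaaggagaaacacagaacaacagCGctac
Cacna1d, downstream start chr14:30353487-30353736 (minus strand): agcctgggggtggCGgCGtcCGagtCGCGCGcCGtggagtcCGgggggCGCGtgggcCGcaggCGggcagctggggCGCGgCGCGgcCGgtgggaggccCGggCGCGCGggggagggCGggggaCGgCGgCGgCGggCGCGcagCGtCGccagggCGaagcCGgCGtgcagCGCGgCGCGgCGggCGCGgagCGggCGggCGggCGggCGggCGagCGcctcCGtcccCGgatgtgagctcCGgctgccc
The number of CpG in the 250 bases is 2 for Slc2a2, 16 for Pcx and 4 for Trpm5. The 5′ ends of Cacna1c and Cacna1d hold 2 CpG each, whereas their downstream starts hold 48 and 50. The windows not printed hold 3 and 5 CpG at G6pc2, 5 at a further start of Cacna1c and 4 at a downstream start of Pcx. Of the windows not printed, only that of Pcx had H3K27Ac within 1000 bp of the start, under HFD-O304 alone. Over all 32851 windows the median was 6 CpG, with 18 among the 10729 windows that had H3K27Ac within 1000 bp of the start in all 3 diets and 3 among the 19316 that had none.

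Slc2a2 encodes GLUT2, the main glucose transporter of the rodent β-cell. In RD its H3K27Ac lay in peaks on both sides of the start, from 2.202 to 1.538 kb upstream (ratio 2.80, 95% interval 2.23 to 3.46) and from 1.387 to 3.093 kb downstream (ratio 2.88, 2.51 to 3.29), with no call between them. In HFD a single peak of 4624 bp reached from 2.973 kb upstream to 1.650 kb downstream (chr3:28694930-28699553) at a ratio of 2.55 (2.35 to 2.76). In HFD-O304 the signal was again called as separate peaks, from 2.084 to 0.811 kb upstream (ratio 2.73, 2.32 to 3.19) and from 0.502 to 3.509 kb downstream (ratio 2.72, 2.45 to 3.02).

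All 3 diets thus had acetylated chromatin around the Slc2a2 start. The HFD peak covered the start itself, the HFD-O304 peaks came within 1000 bp of it, and the RD peaks did not. With a window of 2000 bp RD also had a peak, and the intervals of the strongest peaks of the 3 diets overlapped. The bases called around the start summed to 2372 bp under RD, 4624 bp under HFD and 4282 bp under HFD-O304. A further peak, 15.992 to 17.196 kb upstream, was called under HFD (624 bp, ratio 2.47) and HFD-O304 (1205 bp, ratio 2.49) and not under RD. Downstream of the gene, RD alone had a peak of 1170 bp at 41.297 to 42.466 kb (ratio 2.55).

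Within the body of Slc2a2 no other acetylated stretch was shared between diets. RD had a peak of 396 bp at 6.228 to 6.623 kb, of which 87.6% was repeat sequence, HFD had a peak of 1111 bp at 7.935 to 9.045 kb (ratio 2.27), and HFD-O304 had a peak of 1319 bp at 12.472 to 13.790 kb (ratio 2.44). H3K27Me3 appeared under HFD-O304 alone, in 305 bp at 6.293 to 6.597 kb that consist wholly of repeats and lie under the RD acetylation peak, at a ratio of 3.83 (2.68 to 5.31).

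Pcx encodes pyruvate carboxylase, the mitochondrial enzyme that feeds pyruvate into the citric acid cycle as oxaloacetate. Its 5′ end carried H3K27Ac at a ratio of 3.40 (2.93 to 3.91) over 1270 bp under RD, 2.90 (2.25 to 3.69) over 451 bp under HFD and 3.17 (2.71 to 3.68) over 1181 bp under HFD-O304. The peak was narrowest and lowest under HFD, with overlapping intervals of the ratios in the 3 diets.

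Pcx has 6 coding transcript starts, and the one 48.338 kb into the gene was acetylated too. Its ratios were 2.56 under RD, 2.72 under HFD and 2.59 under HFD-O304, over 1627, 1972 and 320 bp. Near the starts at 83.874 and 83.936 kb H3K27Ac was called under HFD-O304 alone, in 863 bp at a ratio of 2.58 (2.0996 to 3.13), and the limits under RD and HFD were 2.40 and 2.26. The strongest acetylation in the locus, with ratios of 4.43, 4.74 and 4.94 under RD, HFD and HFD-O304, lay downstream at the promoter of the neighbouring gene Rce1. The promoter of Lrfn4, inside the locus, was acetylated as well.

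G6pc2 encodes the islet glucose-6-phosphatase catalytic subunit, which hydrolyses glucose 6-phosphate. No H3K27Ac was called within 1000 bp of its 5′ end or of its coding starts at 8.898 and 8.925 kb in any diet. A peak near the end of the gene was present under RD (533 bp, ratio 2.70, 2.08 to 3.45) and HFD (296 bp, ratio 2.51, 1.77 to 3.45), and a different one at 10.832 to 11.493 kb under HFD-O304 (662 bp, ratio 2.63, 2.08 to 3.27). The remaining peak of the locus, under HFD and HFD-O304, lay at the promoter of the neighbour Spc25. G6pc2 was the least acetylated of the 3 metabolic genes, with 0.939%, 1.02% and 1.68% of its locus under peaks under RD, HFD and HFD-O304.

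Kcnj11 and Abcc8 encode Kir6.2 and SUR1, the pore and the sulphonylurea receptor of the ATP-sensitive potassium channel. The genes lie head to tail on chromosome 7, 3758 bp apart, and the stretch from 20 kb below Kcnj11 to 20 kb above Abcc8 spans 126.081 kb. H3K27Ac peaks covered 25.7 kb of it under RD, 39.5 kb under HFD and 37.7 kb under HFD-O304, that is 20.4%, 31.3% and 29.9%. No H3K27Me3 peak was called there in any diet.

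At the 5′ end of Kcnj11 the ratio was 3.26 (2.998 to 3.53) under RD, 3.17 (2.92 to 3.44) under HFD and 3.14 (2.96 to 3.34) under HFD-O304. The peak was 3982, 3568 and 7671 bp wide under RD, HFD and HFD-O304. The intervals of its height overlapped, while under HFD-O304 it extended to both sides, from 2.474 kb upstream to 5.196 kb downstream (chr7:46095568-46103238), and 0.497% of that diet's peaks were at least as wide.

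At the 5′ end of Abcc8 the ratio was 2.89 (2.66 to 3.14) under RD, 2.99 (2.78 to 3.21) under HFD and 3.03 (2.85 to 3.22) under HFD-O304. The widths were 4433, 4975 and 7734 bp. In RD and HFD a smaller second peak followed downstream, at 4.425 to 4.992 kb and 5.772 to 6.510 kb, and under HFD-O304 the single peak (chr7:46173584-46181317) reached 6.449 kb downstream, across the first of these and most of the second.

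Within this locus the widest difference in calling lay inside Abcc8. Between 42.831 and 53.301 kb from its start, RD had 5 peaks that summed to 4062 bp, HFD had a single peak of 10444 bp at a ratio of 2.62 (2.48 to 2.76), and HFD-O304 had 2 peaks of 8941 bp in all. In HFD 0.341% of peaks were at least as wide. Beginning 10.009, 13.761, 18.673 and 40.099 kb into Abcc8, 4 small peaks of 276 to 445 bp were called in both HFD and HFD-O304 and not under RD. Conversely, RD alone had a peak of 391 bp at 21.792 to 22.182 kb (ratio 2.66). A region at 27.970 to 29.099 kb was called under RD and HFD and not under HFD-O304. A stretch that runs into Abcc8 from its 3′ end, 3.357 to 5.853 kb above the Kcnj11 start, was also called under HFD (2497 bp, ratio 2.41) and HFD-O304 (1227 bp, ratio 2.40) alone, close to the limit of each list.

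**Figure D2:**
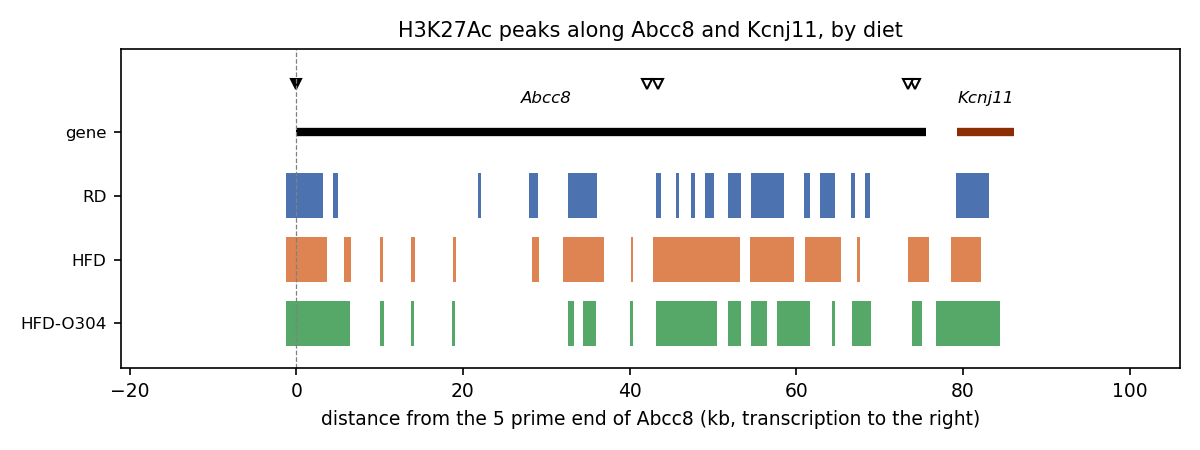
H3K27Ac peaks (coloured boxes) along Abcc8 and Kcnj11 under RD, HFD and HFD-O304, against the distance from the 5′ end of Abcc8 in kb (horizontal axis), with gene bodies as thick bars. Filled triangles mark coding transcript starts of Abcc8 and open triangles those of models whose 5′ end is annotated as incomplete. The boxes cover 25.7 kb under RD, 39.5 kb under HFD and 37.7 kb under HFD-O304.

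Trpm5 encodes a calcium-activated monovalent cation channel. At its complete start, which has the 4 CpG shown above, no H3K27Ac was called in any diet, and the nearest peak lay 15311 bp away under RD, 12607 bp under HFD and 12460 bp under HFD-O304. Within the gene the acetylation lay over the 3′ part, 15.311 to 26.710 kb from the start. A separate peak, 40.300 to 41.824 kb from the start and at the promoter of Cd81, had the highest ratios of the locus, 3.20 under RD, 3.30 under HFD and 3.24 under HFD-O304. In the 3′ part RD had peaks of 1669 bp (ratio 2.51, 2.16 to 2.90) and 2893 bp (ratio 3.18, 2.88 to 3.50), and HFD of 3386 bp (ratio 2.49, 2.26 to 2.74) and 4149 bp (ratio 3.17, 2.94 to 3.42). HFD-O304 had a single peak of 11330 bp (chr7:143067932-143079261) at a ratio of 3.04 (2.89 to 3.19), and 0.291% of its peaks were at least as wide.

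The stronger of the 2 peaks under RD and HFD lay at the promoter of Tssc4, the next gene downstream, which the single peak of HFD-O304 also reached. The broad peak of HFD-O304 overlapped transcript starts of Trpm5 at 20.081 and 20.605 kb, but both belong to models annotated with an incomplete 5′ end. If all coding starts are counted, Trpm5 has a promoter peak under HFD-O304 alone, and if incomplete models are left out it has none.

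Upstream of Trpm5, from 12.460 kb before its start and at the promoter of Kcnq1, both marks were called in overlapping bases. H3K27Ac was present under HFD (355 bp, ratio 2.54, 1.86 to 3.39) and HFD-O304 (437 bp, ratio 2.55, 1.90 to 3.36). H3K27Me3 was present under RD (391 bp, ratio 2.85, 2.08 to 3.82) and HFD (1472 bp, ratio 3.39, 2.86 to 3.99). RD thus had the repressive mark alone, HFD both and HFD-O304 the active mark alone, where the limits for a call were 2.40 for H3K27Ac under RD and 2.97 for H3K27Me3 under HFD-O304. The values lie close to these limits, and the kept H3K27Me3 fragments differed, 74870300 under RD, 54166902 under HFD and 57324419 under HFD-O304. Their part in the pattern was not tested.

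**Figure D3:**
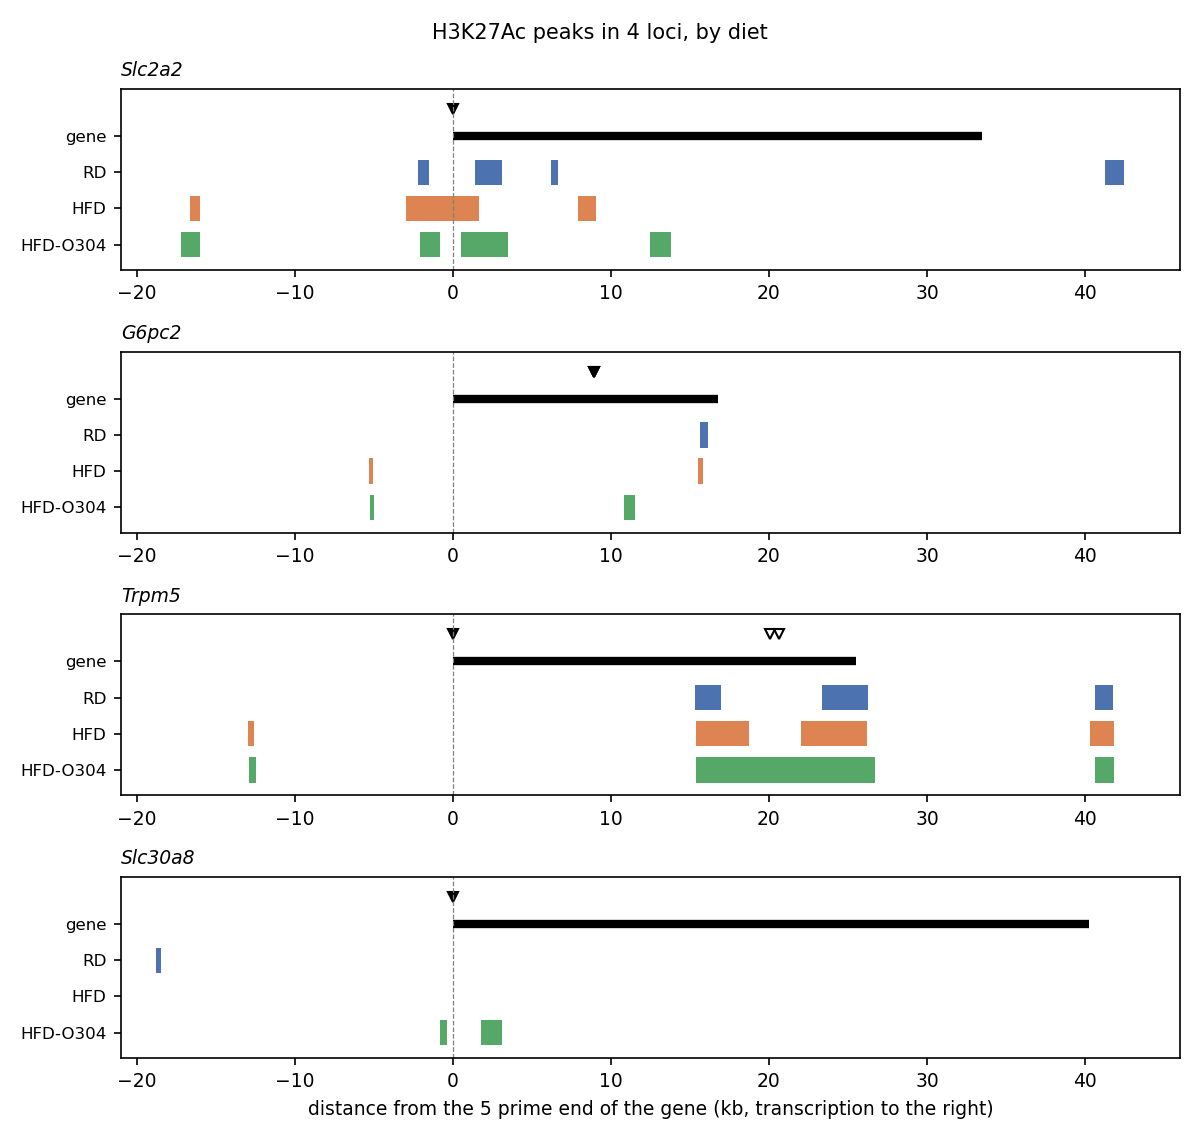
H3K27Ac peaks (coloured boxes) under RD, HFD and HFD-O304 at Slc2a2, G6pc2, Trpm5 and Slc30a8, against the distance from the 5′ end of each gene in kb (horizontal axis). Black bars are gene bodies, filled triangles coding transcript starts and open triangles starts of models with an incomplete 5′ end. The peak of HFD lies across the start of Slc2a2, the box of 11330 bp at Trpm5 is under HFD-O304, and Slc30a8 has boxes near its start under HFD-O304 only.

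Cacna1c and Cacna1d encode CaV1.2 and CaV1.3, the pore-forming subunits of the L-type calcium channels of the β-cell. No H3K27Ac was called at the 5′ end of either gene in any diet. Both were instead acetylated in all 3 diets within 1000 bp of starts far inside the annotated gene. The windows printed above for downstream RefSeq starts of these genes are CpG-rich.

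The coding starts of Cacna1c at 87.845 to 88.443 kb from the 5′ end carried H3K27Ac at a ratio of 2.99 (2.67 to 3.32) under RD, 3.30 (3.02 to 3.61) under HFD and 2.95 (2.62 to 3.30) under HFD-O304. The widths were 2510, 2884 and 2185 bp. The ratio was highest under HFD, and the 3 intervals overlapped. A start at 116.411 kb had peaks under HFD (397 bp, ratio 2.38) and HFD-O304 (1184 bp, ratio 2.52) and none under RD.

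The starts of Cacna1d at 138.446 and 138.464 kb had H3K27Ac within 1000 bp, at ratios of 2.81 (2.09 to 3.71) under RD, 3.08 (2.76 to 3.44) under HFD and 2.79 (2.45 to 3.15) under HFD-O304. The RD peak lay 771 bp from the nearer start, whereas those of HFD and HFD-O304 overlapped the starts. The window printed above belongs to a RefSeq start at position 30353486, not to these starts. The peak was 398 bp wide under RD, 2065 bp under HFD and 1998 bp under HFD-O304. RD had the narrowest call, while the intervals of the ratios overlapped. With coding starts of complete transcripts in place of the 5′ end, 5, 6 and 7 of the 9 genes had H3K27Ac under RD, HFD and HFD-O304, against 46.8%, 52.7% and 52.1% of all genes.

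Along the 609.179 kb of Cacna1c and its flanks 8 peaks were called under RD, 14 under HFD and 12 under HFD-O304, and along the 451.517 kb of Cacna1d 4, 8 and 8. In Cacna1c, 6 of 19 acetylated regions were called in all 3 diets, among them the intragenic one at 216.570 to 219.774 kb, with widths of 967, 2650 and 3043 bp under RD, HFD and HFD-O304. A region of 2926 bp at 245.462 to 248.387 kb (ratio 2.55, 2.3002 to 2.82) was called under HFD alone. One of 382 bp at 297.875 to 298.256 kb (ratio 2.54) was called under RD alone. In Cacna1d, 3 of 10 regions were called in all diets and 4 under HFD and HFD-O304 but not RD, the widest of these at 229.439 to 231.559 kb (1620 bp, ratio 2.42 under HFD and 2121 bp, ratio 2.57 under HFD-O304). RD alone had a region of 1819 bp at 293.025 to 294.843 kb (ratio 2.40).

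Some of the acetylation in these large loci belonged to other genes or to repeats. The peak 11.250 to 11.878 kb into Cacna1d, with ratios of 2.88, 3.69 and 3.795 under RD, HFD and HFD-O304, lay at the promoter of Dcp1a, and the one 20.561 to 21.483 kb into Cacna1c at that of Dcp1b. The peak from 14.007 kb above Cacna1c consisted wholly of repeat sequence in every diet, as did the only H3K27Me3 calls at Cacna1c, of 245 to 462 bp beyond its 3′ end.

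**Figure D4:**
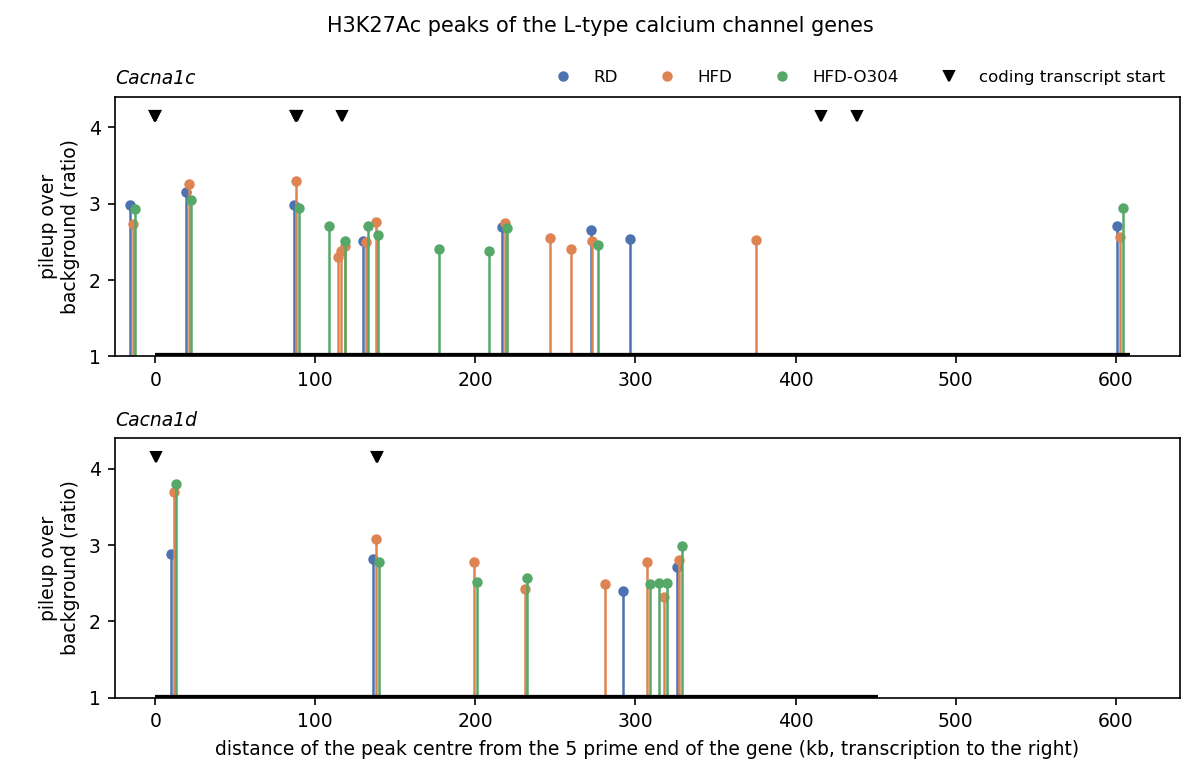
H3K27Ac peaks of Cacna1c (upper panel) and Cacna1d (lower panel) under RD, HFD and HFD-O304. The height of a stem is the pileup over the uniform background (a ratio, with stems starting at 1), plotted against the distance of the peak centre from the 5′ end of the gene in kb, with diets shifted slightly sideways for visibility. Triangles mark coding transcript starts and the black bar the gene. There is no stem at the first start of either gene, and stems of all 3 diets stand at the second cluster of starts.

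Slc30a8 encodes ZnT8, the zinc transporter of insulin granules. Its start carried H3K27Ac under HFD-O304 alone, in 434 bp from 0.807 to 0.374 kb upstream (chr15:52294746-52295179) at a ratio of 2.54 (1.88 to 3.35), with a further peak of 1334 bp at 1.768 to 3.101 kb downstream (ratio 2.58, 2.19 to 3.02). RD and HFD had no call near the start, and their limits of 2.40 and 2.26 lie inside the interval of the HFD-O304 promoter peak. The only other call in the locus was a peak of 311 bp under RD, up to 18.802 kb upstream, that consists wholly of repeats. With lists of equal size the Slc30a8 promoter peak was lost, and 3, 4 and 4 of the 9 genes kept one under RD, HFD and HFD-O304. When the −log10 q had to reach 5, they were 2, 3 and 3, since the Slc2a2 peaks of HFD and HFD-O304 and the Abcc8 peak of RD were lost as well. Under that limit Slc2a2 had no promoter peak in any diet and Abcc8 none under RD.

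Per gene, the share of the locus under H3K27Ac peaks ranged over more than an order of magnitude. It was highest for Abcc8 (22.2% under RD, 34.2% under HFD, 32.6% under HFD-O304) and Kcnj11 (16.4%, 24.03% and 29.7%). Of all protein-coding genes 0.459%, 0.381% and 0.372% had at least as large a share as Abcc8 under RD, HFD and HFD-O304, and 0.717%, 0.613% and 0.413% as large a share as Kcnj11, though every Kcnj11 peak also lies in the Abcc8 locus. Trpm5 followed with 8.71%, 14.4% and 19.8%, and Slc2a2 with 5.36%, 8.66% and 9.27%. Without the peaks that touch the promoters of Cd81, Tssc4 and Kcnq1 the share of Trpm5 was 2.55%, 5.17% and 0%, below that of Slc2a2 in every diet. Peaks were left out whole, so the 0% also drops the bases of the 11330 bp peak that lie inside Trpm5.

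Pcx had 3.55%, 3.89% and 4.37%, while G6pc2, Cacna1c, Cacna1d and Slc30a8 had from 0 to 2.62% in every diet. The median over all protein-coding genes was 0.861% under RD, 1.30% under HFD and 1.23% under HFD-O304. At least 1 H3K27Ac peak was called in the locus of 9 of the 9 genes under RD, 8 under HFD and 9 under HFD-O304, against 63.1%, 69.3% and 67.8% of all genes. H3K27Me3 was called in the locus of 2 genes in each diet, against 29.9%, 30.6% and 36.4%.

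**Figure D5:**
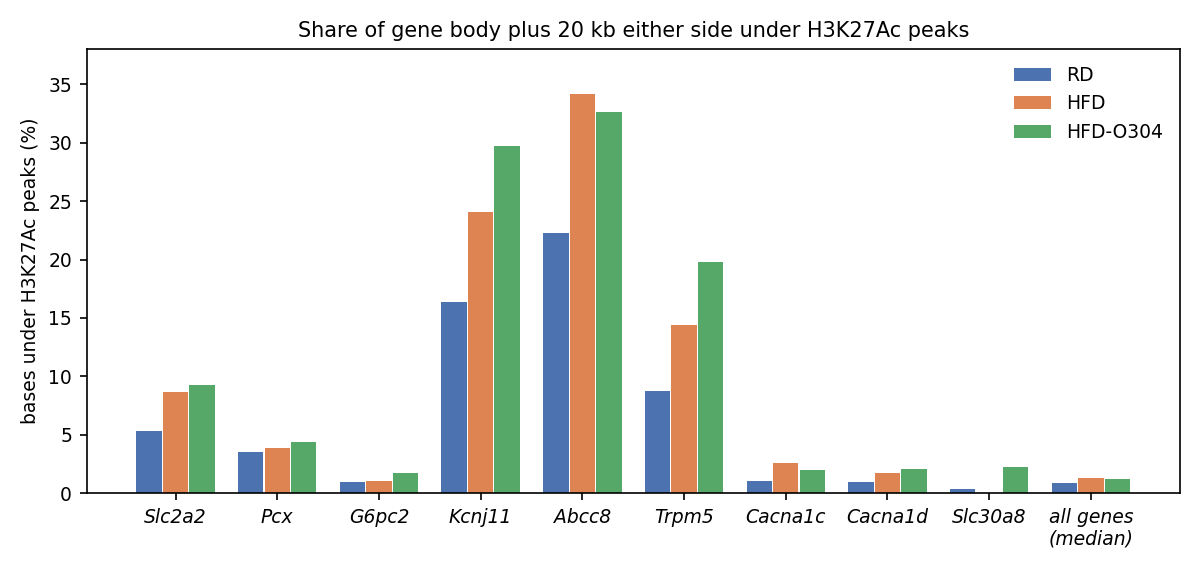
Share of each locus, the gene body plus 20 kb on either side, that lay under H3K27Ac peaks (vertical axis, percent of bases) under RD, HFD and HFD-O304, with the median over all protein-coding genes at the right. Abcc8 reaches 22.2% to 34.2% and Kcnj11 16.4% to 29.7%, while the median gene has 0.861% to 1.30%.

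More bases lay under called H3K27Ac peaks under HFD than under RD at 8 of the 8 genes that had peaks in both. The ratios ran from 1.09 for G6pc2 to 2.46 for Cacna1c, with a median of 1.58. The same direction held for 78.1% of all genes with peaks in both diets, whose median was 1.26, and the whole HFD list covered 1.43 times as many bases as the RD list. In HFD-O304 against RD the covered bases were higher at 9 of 9 genes, with a median ratio of 1.82, against 74.3% and a median of 1.22 over all genes and 1.34 for the whole list. The lists as a whole thus moved in the same direction. Counts of genes here and below take Kcnj11 and Abcc8 as 2 genes, although every Kcnj11 peak also lies in the Abcc8 locus. Summed over the separate loci, HFD covered 1.64 times the bases of RD and HFD-O304 1.69 times. With lists of equal size, chosen for this ratio after seeing the data, these were 1.38 and 1.44 times. Slc30a8, which had no peak under HFD, covered 0.311 kb under RD and 1.77 kb under HFD-O304. Without the peaks that touch the promoter of another gene, an alternative chosen after seeing the data, the covered bases were higher under HFD than under RD at 6 of 8 genes and lower at Pcx and G6pc2. Under HFD-O304 they were then higher than under RD at 7 of 9 genes, lower at Pcx (2.635 against 2.897 kb) and 0 at Trpm5. At Trpm5 the broad peak that reaches Tssc4 was left out whole, with its bases inside Trpm5.

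Between HFD-O304 and HFD the covered bases were higher under HFD-O304 at 6 of 8 genes and lower at Abcc8 (ratio 0.954) and Cacna1c (0.763), against 45.3% higher over all genes. The largest of these ratios were those of G6pc2 (1.65), Trpm5 (1.38) and Kcnj11 (1.24). Without the peaks at other promoters 5 of 8 were higher, and Trpm5 went from 3.386 kb under HFD to 0 under HFD-O304. That 0 follows from leaving out peaks whole. The HFD-O304 peak left out, 15.381 to 26.710 kb from the Trpm5 start, spans nearly all of the HFD peak that was kept (15.373 to 18.758 kb). Summed over the 8 separate loci of 1694.02 kb, H3K27Ac covered 53.2 kb under RD, 87.1 kb under HFD and 90.0 kb under HFD-O304. The sum of HFD-O304 over that of HFD was 1.03, and without the peaks that touch the promoter of another gene it was 0.947, the Trpm5 peak of 11330 bp, which reaches Tssc4, being among those left out.

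Joined over the diets, the loci held 62 acetylated regions. Of these, 22 were called in all 3 diets (35.5%, against 50.5% of the 26255 regions of the genome), 14 under HFD and HFD-O304 but not RD (22.6%, against 11.8%), 7 under HFD alone (11.3%, against 15.6%), 10 under HFD-O304 alone (16.1%, against 11.7%), 6 under RD alone (9.68%, against 4.38%) and 3 under RD and HFD (4.84%, against 3.79%). 0 were shared by RD and HFD-O304 without HFD, a pattern of 2.16% of all regions. The regions were spread unevenly over the genes, with 19 at Cacna1c, 13 at Abcc8 and 10 at Cacna1d. Of the 14 called under HFD and HFD-O304 but not RD, 5 lay at Abcc8, 4 at Cacna1d and 2 at Cacna1c. Slc2a2, G6pc2 and Trpm5 had 1 each, Pcx and Slc30a8 had 0, and that of Kcnj11 is among those of Abcc8. In the 22 regions common to the diets the 95% intervals of the strongest peak of each diet overlapped in 22, with RD the narrowest in 9 and the widest in 2. Each height is a mean over the bases called in that diet, so the diets were compared over stretches of different width. Overlap of counting intervals is not a test, and no error between replicates was available. The called widths differed.

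The other genes of the pathway and the closest relatives of the 9 genes give the setting. Of 36 further genes of glucose metabolism, membrane excitability and calcium handling, 26 carried H3K27Ac at the 5′ end under RD, 29 under HFD and 30 under HFD-O304, against 43.9%, 49.7% and 49.2% of all genes, and 26 did so in all diets. Those that differed were Pklr (pyruvate kinase; 2.58 under HFD and 2.77 under HFD-O304), Trpm2 (a TRPM cation channel; 2.58 and 2.38) and Cacna1h (a T-type calcium channel; 2.95 and 2.45), all without a peak under RD, and Cacnb3 (a calcium channel β subunit), with a peak of 2.38 under HFD-O304 alone. Pklr and Trpm2 had the same pattern over the 6 lists as Slc2a2, and Kcnma1, Scn3a and Cacna1a, like Trpm5, had no peak at the 5′ end in any.

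H3K27Me3 was not called at the 5′ ends of the 9 genes, and it was called at those of 4, 5 and 6 of the 36 pathway genes under RD, HFD and HFD-O304, against 6.62%, 8.45% and 8.88% of all genes. Cacna1g, Cacna1h, Kcnk3 and Ryr2 carried it in all diets, Cacna1e under HFD and HFD-O304, and Scn9a under HFD-O304. Among 12 paralogues of the 9 genes it was called at 4, 5 and 7, against the same shares of all genes. Slc2a3, Kcnj8 and Trpm8 had it in all diets, Abcc9 under RD and HFD-O304, Cacna1s and Slc30a2 under HFD and HFD-O304, and Slc2a4, the glucose transporter of muscle and fat, under HFD-O304 alone. Of the 12 paralogues 2, 2 and 3 carried H3K27Ac at the 5′ end under RD, HFD and HFD-O304, against 43.9%, 49.7% and 49.2% of all genes.

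A set of 8 short motifs was searched on both strands in the 250 bases upstream of the 11 starts. GGGCGG, the core of GC boxes, was found at 3 starts, those of the acetylated Pcx 5′ end and of the downstream starts of Cacna1c and Cacna1d, and in 32.7% of all windows. TATAAA was found only at the 5′ end of Cacna1d (12.4% of windows), TGACG only at that of Cacna1c (17.8%) and TGCTGAC only at the coding start of G6pc2 (3.81%). CANNTG was found at 9 of the 11 starts and in 66.2% of windows, and TAATTA (4.84% of windows), TGTTTAC (3.17%) and GTTAAT (6.43%) at 0. These matches describe the letters of the windows.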

How the data were processed

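Chromatin immunoprecipitation was carried out on 12 samples (2 marks, 3 diets, 2 replicates each), and 3 input samples were not analysed here. Per the study's methods and the labels, paired-end reads were mapped by the authors to GRCm38 with Bowtie2, replicates were merged, and peaks were called with MACS2. Per the file headers (MACS 2.1.2), broad peaks were called at a q cutoff of 0.01 without a control sample or local background, with at most 1 fragment kept per position. The deposited columns hold the pileup (a coverage signal), the fold enrichment (a ratio over the uniform background, with a pseudocount), and −log10 p-values and q-values. The study's methods give the same 0.01 for the false discovery rate but list program options with a looser cutoff, and that of the headers was taken.

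The ratio used here is the deposited pileup divided by kept fragments times fragment size over the effective genome size of 1.87e+09. Fragments per peak were estimated as pileup times length over fragment size, and 95% exact Poisson intervals cover counting error only. Counting was tested on 1000 simulated windows, with 0 wrong. Peaks were assigned to GENCODE M21 genes within 1000 bp of the 5′ end and within the gene body plus 20 kb. Repeat shares are lower-case bases of the RefSeq GRCm38.p6 genome. Python 3.11.15, numpy 2.4.6, pandas 2.3.3, scipy 1.17.1 and matplotlib 3.10.9 were used.

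The 9 genes and all lists were chosen with earlier results of these data known. All 9 are described. Pathway genes were named if their H3K27Ac presence differed between diets, or if they had the pattern of Slc2a2 or Trpm5 over the 6 lists, paralogues if they had H3K27Me3, and markers if they were absent. The pathway genes with H3K27Me3, the marker genes with peaks and the neighbouring genes were named after their values were seen.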

Additional observations from a re-analysis of the deposited data

How the results depend on the processing

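Each result was recomputed under alternatives to the calling threshold, windows, transcript starts and repeats, and of 201 values 172 stayed within 1.5 times the main value or its counting interval. The genes with H3K27Ac at the promoter numbered 3 in RD and 5 in HFD-O304. RD had 5 with all coding starts and 5 with complete ones, and HFD-O304 had 8 with all coding starts, 3 with a −log10 q of at least 5 and 3 with an overlap of at least 500 bp. The H3K27Ac peaks in the loci, 41, 49 and 52 in RD, HFD and HFD-O304, fell to 10, 13 and 13 with a −log10 q of at least 5, and were 41, 31 and 35 with lists of equal size, where both high-fat lists had fewer than RD. The bases covered fell to 19.3, 26.1 and 39.9 kb with that q. HFD-O304 over HFD in covered bases was 0.947, reversed from 1.03, without peaks at other promoters, a setting that drops the Trpm5 peak of 11330 bp whole. The 2 H3K27Me3 peaks of RD became 0 with the q of 5, with no flank and with 5 kb flanks, and 1 with a common fold cutoff, without peaks of at least 50% repeats and without other promoters. The 2 of HFD became 0 with the q of 5, no flank and 5 kb flanks, and 1 without repeats and without other promoters. The 2 of HFD-O304 became 1 with the q of 5, no flank and 5 kb flanks, and 0 without repeats. At single promoters 23 of 24 ratios stayed within their counting interval, the exception being the deposited fold of 2.96 for Kcnj11 in HFD-O304, and 11 of 12 widths were equal, that of Slc2a2 in HFD-O304 going from 3008 to 4282 bp with all overlapping peaks summed. Complete starts, peaks at other promoters and the alternatives for covered bases were chosen after seeing the data. No paired analysis was possible because each list came from 2 replicates pooled at the alignment stage, which also kept single replicates from being left out. A region without a peak did not meet the limits of its list in pileup or in width, and was not shown to lack the mark. The narrowest peak of each list was as wide as its fragment size, 269 or 270 bp in H3K27Ac and 219 to 223 bp in H3K27Me3.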
